A study of Mus musculus with 16 samples.

Results

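Lcn2, Saa3 and Chi3l1 are genes of secreted acute-phase and antibacterial proteins, and they were followed here across 16 libraries of mouse airway macrophages. They are 3 of the 23159 gene symbols in the table of counts, and all 3 passed the filter on low counts that kept 12455 genes. They were chosen by their higher counts after pneumonia in these same libraries, injured against control. The difference between injured and control libraries is therefore given for them as a description, with no test, and only the comparisons of genotypes were tested.

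The RNA came from macrophages recovered by bronchoalveolar lavage, a wash of the airways. Each of the 4 groups had 4 libraries: TLR3-KO injured, WT injured, TLR3-KO control and WT control. TLR3-KO mice lack Toll-like receptor 3, an endosomal sensor of double-stranded RNA, and WT mice are wild type. The groups titled injured followed pneumonia; the bacterium was Klebsiella pneumoniae strain 43816, serotype 2, given at 500 CFU (colony-forming units) in 30 µl deep into the hypopharynx under isoflurane. Control libraries carry the treatment label none, while the protocol names saline as the other inoculum. The series title speaks of male mice, and the series text counts 15 samples where the table holds 16. The strain and age of the mice, the design of the Tlr3 allele, the time between inoculation and lavage, and any pooling of animals are not given in the sources used here. Because nothing ties a library to a mouse of its own, the p-values below measure the spread between libraries, which may be technical.

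Lcn2 encodes lipocalin 2, which binds the siderophore enterobactin and so keeps iron from bacteria. Saa3 encodes a serum amyloid A made outside the liver, in macrophages and epithelium among other cells, and Chi3l1 encodes a chitinase-like protein that binds chitin without cleaving it. All are known as genes that inflammatory cytokines and bacterial products induce in lung and myeloid cells, and lipocalin 2 is also stored in the granules of neutrophils. In mm10, with the GENCODE M21 annotation, Lcn2 (ENSMUSG00000026822.14) lies on the minus strand of chromosome 2 from 32384633 to 32388252. Saa3 (ENSMUSG00000040026.8) lies on the minus strand of chromosome 7 from 46711998 to 46715700. Chi3l1, which that annotation calls Chil1 (ENSMUSG00000064246.10), lies on the plus strand of chromosome 1 from 134182176 to 134190181. The transcript taken for each gene has 6 exons and 915 bases for Lcn2, 4 exons and 555 bases for Saa3, and 10 exons and 1687 bases for Chi3l1. No other annotated gene in the table overlaps any of them, so their counts do not depend on how overlapping genes were resolved.

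The 250 bases before each RefSeq start site (GRCm38.p6) are shown because the 3 genes were high in nearly the same libraries. All 3 matched the RefSeq promoter table. Each is read 5′ to 3′ on the strand of its gene, and capitals mark matches to a C/EBP motif, TTNNGNAA, searched on both strands.
Lcn2, chr2:32387740-32387989, minus strand: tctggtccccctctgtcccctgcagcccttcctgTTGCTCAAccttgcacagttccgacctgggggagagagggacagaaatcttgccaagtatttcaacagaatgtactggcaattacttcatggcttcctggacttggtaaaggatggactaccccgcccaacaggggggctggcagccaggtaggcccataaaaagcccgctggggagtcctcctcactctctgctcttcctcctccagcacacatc
Saa3, chr7:46715677-46715926, minus strand: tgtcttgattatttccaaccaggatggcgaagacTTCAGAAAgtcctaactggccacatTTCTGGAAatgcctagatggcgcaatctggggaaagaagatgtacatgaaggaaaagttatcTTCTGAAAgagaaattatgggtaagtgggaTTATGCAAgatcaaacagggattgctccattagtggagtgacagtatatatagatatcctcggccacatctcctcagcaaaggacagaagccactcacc
Chi3l1, chr1:134181906-134182155, plus strand: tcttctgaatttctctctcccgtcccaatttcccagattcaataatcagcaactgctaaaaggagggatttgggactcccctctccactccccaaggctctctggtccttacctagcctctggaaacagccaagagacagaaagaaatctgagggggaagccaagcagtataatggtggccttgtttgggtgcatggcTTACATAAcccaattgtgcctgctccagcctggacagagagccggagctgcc
C/EBP factors are regulators of acute-phase and myeloid genes. Over the window of 300 bases, which adds the first 50 bases after the start, the motif had 1 match in Lcn2, 4 in Saa3 and 1 in Chi3l1. The Saa3 matches began 216, 191, 129 and 99 bases before the start site, the Lcn2 match 216 and the Chi3l1 match 52 bases before it. Of all 32851 promoters in the table, 40.7% held the motif, so holding it does not set these genes apart. An interferon response element, written as GAAA, any 2 bases and GAAA again, had a match in Saa3, GAAAGAGAAA, which began 125 bases before the start and overlapped the C/EBP match at 129. No match stood in Lcn2 or Chi3l1, and 3.44% of all promoters held one. The letters GGG, any 2 bases and TTNCC for NF-kB (4.79% of promoters), TTCNNNGAA for STAT (8.3%), TGANTCA for AP-1 (7.81%) and TATAAA for a TATA box (13.6%) were in none of the 3 windows. The annotations place the starts differently: the GENCODE transcript begins 58 bases before the RefSeq start for Lcn2 and 24 before it for Saa3, and 248 bases after it for Chi3l1.

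Total counts lay between 29667102 and 59640251 per library, and levels are given as CPM, the usual library-scaled count, which is a gene's share of all counts in its library on a scale common to every library. Tlr3 itself reached 0.353 to 0.677 CPM in TLR3-KO injured and 2.35 to 4.27 CPM in WT injured libraries, and at 0.274 to 0.717 CPM in TLR3-KO control and 2.18 to 4.53 CPM in WT control libraries, so no library went against its genotype label. Xist RNA, made by female cells, reached 42.3, 31.6 and 20.3 CPM in the first 3 TLR3-KO controls and no more than 0.23 CPM elsewhere. Genotype and the sex of the RNA cannot be told apart among those controls, nor can pneumonia and sex between them and TLR3-KO injured libraries. The values of Lcn2, Saa3 and Chi3l1 that use those controls are also given without these 3 libraries. Markers of alveolar macrophages summed to 31900 to 34500 CPM in TLR3-KO injured, 27500 to 37200 CPM in WT injured, 26700 to 34700 CPM in TLR3-KO control and 26800 to 33800 CPM in WT control libraries, with 18 of the 19 markers in the table and none at 0. In bulk RNA like this, fewer cells of a type and less RNA per cell cannot be told apart.

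Lcn2 stood above every control of its genotype in 7 of the 8 injured libraries. It had 33.0, 3.72, 10.3 and 51.8 CPM in TLR3-KO injured libraries 1 to 4, against 0.972, 0.400, 0.464 and 1.01 CPM in TLR3-KO controls 1 to 4. All 4 TLR3-KO injured libraries lay above all 4 TLR3-KO controls, with library 2 nearest to them. In WT it had 0.466, 16.7, 43.2 and 8.11 CPM in injured libraries 1 to 4, against 2.78, 3.24, 0.246 and 2.08 CPM in controls 1 to 4. WT injured 1, with 18 counts, lay inside the WT control range, and the other 3 lay above it. The means were 24.7 ± 22 CPM in TLR3-KO injured, 17.1 ± 18.6 CPM in WT injured, 0.712 ± 0.325 CPM in TLR3-KO control and 2.09 ± 1.32 CPM in WT control libraries (SD, n = 4 each).

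Chi3l1 followed Lcn2 closely. It had 34.3, 2.73, 11.2 and 41.6 CPM in TLR3-KO injured libraries 1 to 4, against 0.735, 0.274, 0.211 and 1.22 CPM in TLR3-KO controls 1 to 4, again without overlap. In WT the injured libraries 1 to 4 had 0.207, 11, 26.2 and 5.97 CPM, against 0.788, 0.640, 0.295 and 2.27 CPM in controls 1 to 4. Here WT injured 1, with 8 counts, lay below every WT control while the other 3 lay above every one. The group means were 22.5 ± 18.5 CPM in TLR3-KO injured, 10.9 ± 11.2 CPM in WT injured, 0.610 ± 0.469 CPM in TLR3-KO control and 0.999 ± 0.875 CPM in WT control libraries (SD, n = 4 each).

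Saa3 was the least abundant and its groups overlapped most. TLR3-KO injured libraries 1 to 4 had 1.20, 0.254, 0.708 and 2.27 CPM, against 0.190, 0, 0.190 and 0.115 CPM in TLR3-KO controls 1 to 4. These did not overlap, but the controls rest on 0 to 9 counts each, and the count of 0 in TLR3-KO control 2 allows up to 0.0631 CPM, the worth of 3 counts, the limit used here for a count of 0. WT injured libraries 1 to 4 had 0.129, 3.65, 2.49 and 0.888 CPM, against 0.939, 1.74, 0.0985 and 0.274 CPM in WT controls 1 to 4. Only WT injured 2 and 3 lay above the WT control range, since WT controls 1 and 2 were both higher than WT injured 1 and 4. The means were 1.11 ± 0.867 CPM in TLR3-KO injured, 1.79 ± 1.58 CPM in WT injured, 0.124 ± 0.0896 CPM in TLR3-KO control and 0.762 ± 0.744 CPM in WT control libraries (SD, n = 4 each).

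**Figure D1:**
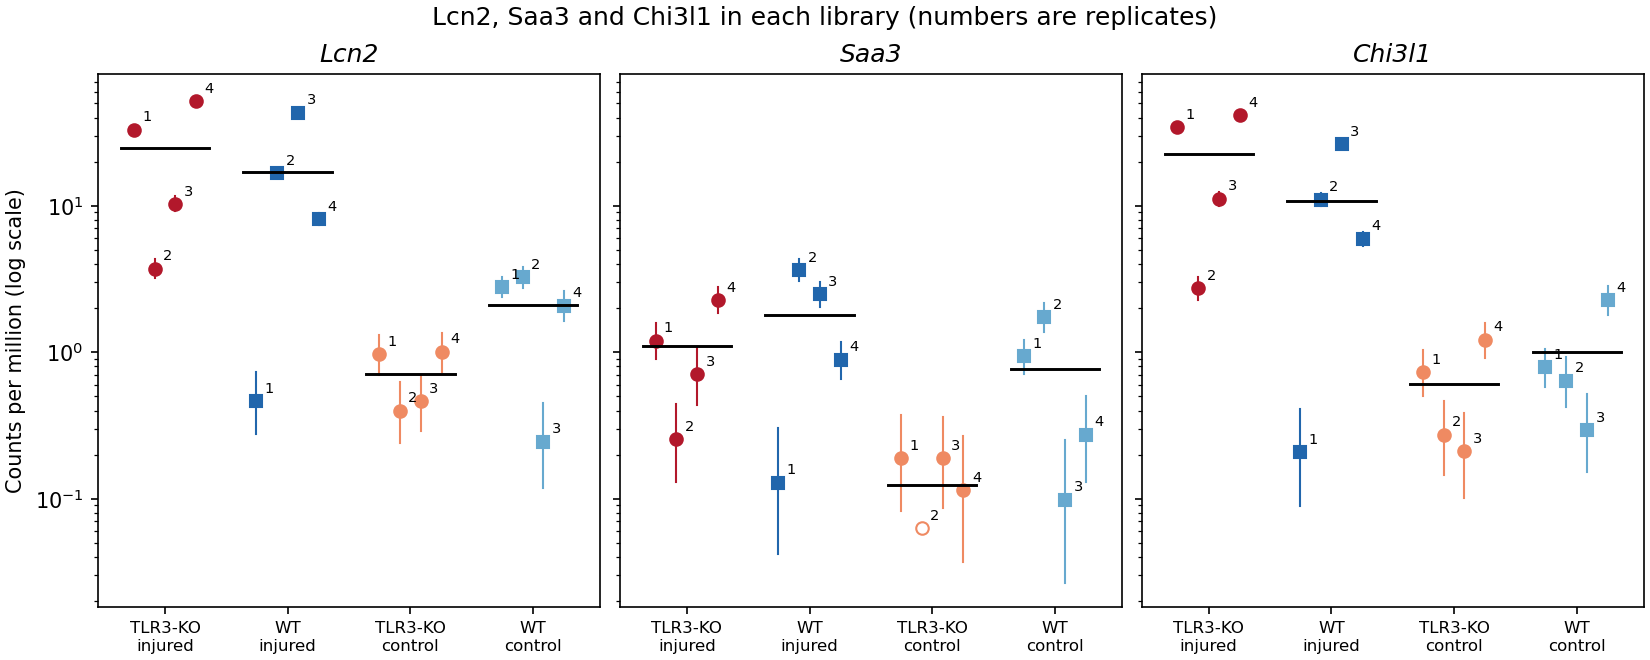
The level in CPM of Lcn2, Saa3 and Chi3l1 (log axis) in each of the 16 libraries; numbers are replicates, horizontal lines group means, and vertical bars exact Poisson 95% intervals, which cover counting error only. The open circle is TLR3-KO control 2 with 0 counts of Saa3, drawn without a bar at 0.0631 CPM, the worth of 3 counts. WT injured 1 sits among the controls, or for Chi3l1 below those of its genotype.

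Scaled by transcript length, Lcn2 was the most abundant of the 3 after pneumonia. Its mean level per kilobase was 27.0 CPM in TLR3-KO injured and 18.7 CPM in WT injured libraries. Chi3l1 reached 13.3 and 6.44 CPM per kilobase in TLR3-KO injured and WT injured libraries, and Saa3 2.00 and 3.22 CPM per kilobase. In controls, Lcn2 averaged 0.778 CPM per kilobase in TLR3-KO and 2.28 in WT, Saa3 0.223 in TLR3-KO and 1.37 in WT, and Chi3l1 0.361 in TLR3-KO and 0.592 in WT.

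As a description of the values that chose the genes, the fitted differences between injured and control libraries were large in TLR3-KO and smaller in WT for all 3. On the log2 scale, Lcn2 was higher by 5.06 (SE 1.11) in TLR3-KO injured over TLR3-KO control and by 2.87 (SE 0.98) in WT injured over WT control libraries. Chi3l1 was higher by 5.16 (SE 1.11) in TLR3-KO and by 3.36 (SE 1.03) in WT, and Saa3 by 3.08 (SE 1.06) in TLR3-KO and by 1.05 (SE 0.90) in WT. Ranked by this difference among 12455 genes, Chi3l1, Lcn2 and Saa3 were 4th, 6th and 32nd in TLR3-KO and 19th, 38th and 342nd in WT. All 4 TLR3-KO injured libraries lay above all TLR3-KO controls for 1401 of the genes (11.2%), and all 4 WT injured above all WT controls for 477 (3.83%), none of them Lcn2, Saa3 or Chi3l1. The WT values depend on single libraries. Without WT injured 1 they were 3.27 for Lcn2, 3.77 for Chi3l1 and 1.43 for Saa3, and without WT injured 3 they were 1.87, 2.46 and 0.85. For Saa3 the controls mattered as much: against WT controls 1 and 2 alone the difference was 0.23, and against WT controls 3 and 4 alone it was 3.21. Without the 3 TLR3-KO controls that carry Xist, which leaves 1 library in that group, the TLR3-KO differences were 4.65 for Lcn2 (SE 2.17), 4.25 for Chi3l1 (SE 2.02) and 3.28 for Saa3 (SE 1.98). Markers of erythroid cells also stood higher after pneumonia in WT, with sums of 76.2 to 139 CPM in WT injured and 2.97 to 45.4 CPM in WT control libraries, against 15.8 to 45.1 CPM in TLR3-KO injured and 8.29 to 103 CPM in TLR3-KO control libraries. Of their 10 genes 7 were in the table, 1 of them with no count, and Alas2 made up 96.4% of the sum. All 6 tested had a positive difference in WT, with a median of 2.37, and none was called. WT injured 1, low for Lcn2, Saa3 and Chi3l1, had 109 CPM, and the part of erythroid RNA in the result was not tested.

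All 3 varied far more between libraries of a group than most genes did. The coefficient of variation that edgeR fitted for each gene was 0.872 for Lcn2, 0.895 for Saa3 and 0.889 for Chi3l1, against a median of 0.198 over 12455 genes. Only 93, 80 and 84 genes had larger values than Lcn2, Saa3 and Chi3l1. Within TLR3-KO injured libraries the highest level was 13.9 times the lowest for Lcn2 and 15.3 times for Chi3l1, and within WT injured libraries 92.8 times for Lcn2 and 127 times for Chi3l1.

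The injured libraries fell in nearly the same order for Lcn2 and Chi3l1. TLR3-KO injured 4 was highest and TLR3-KO injured 1 and WT injured 3 came next, while TLR3-KO injured 2 and WT injured 1 were the lowest for each of the 3 genes. Saa3 differed at the top, where WT injured 2 and 3 stood first. The level of Lcn2 was 0.927 to 1.36 times that of Chi3l1 in TLR3-KO injured and 1.36 to 2.25 times in WT injured libraries, and 0.83 to 2.2 times in TLR3-KO control and 0.833 to 5.07 times in WT control libraries, in CPM. Lcn2 over Saa3 was 14.6 to 27.5 in TLR3-KO injured and 3.60 to 17.4 in WT injured libraries. It was 2.44 to 8.80 in the 3 TLR3-KO controls with a Saa3 count and 1.87 to 7.60 in WT controls. WT injured 1 was the lowest of the 8 injured libraries for 3494 of 12455 genes (28.1%), so its low place is shared widely. The fuller pattern, with WT injured 2 to 4 above every WT control and WT injured 1 not above them all, was held by 300 genes (2.41%), Lcn2 and Chi3l1 among them. With WT injured 1 below every WT control, as for Chi3l1, it was held by 69 genes (0.554%).

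**Figure D2:**
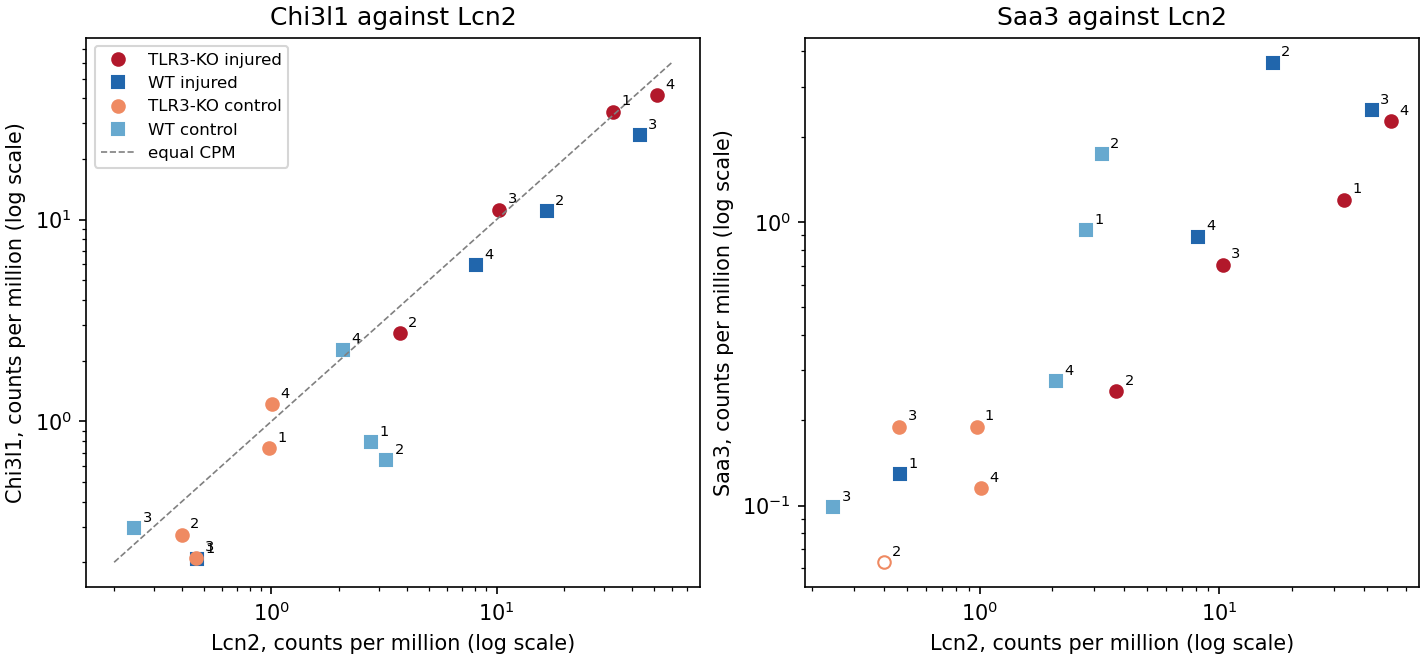
Chi3l1 (left) and Saa3 (right) against Lcn2 in CPM, both axes logarithmic, 1 point per library, numbered by replicate; the dashed line marks equal levels and the open circle 0 counts of Saa3 drawn at 0.0631 CPM. Chi3l1 lies near the line from the lowest library to the highest, and WT controls 1 and 2 stand below it on the left and high on the right.

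The comparison of genotypes after pneumonia asks whether the loss of TLR3 changes these levels in injured animals. No difference was detected for any of the 3. Lcn2 was higher by 0.52 on the log2 scale in TLR3-KO injured than in WT injured libraries (SE 0.90, 95% interval -1.38 to 2.43, edgeR adjusted p = 0.792). Chi3l1 was higher by 1.04 (SE 0.90, interval -0.87 to 2.95, edgeR adjusted p = 0.574). Saa3 had a difference of -0.70 (SE 0.89, interval -2.58 to 1.18, edgeR adjusted p = 0.712). The intervals reach past a 4-fold difference in at least 1 direction for each gene, so these libraries do not exclude one. Over all genes, 77 of 12455 (0.618%) were called in this comparison at an adjusted p under 0.05, 49 higher in TLR3-KO (0.393%) and 28 lower (0.225%). The direction for Lcn2 rests on single libraries: it was -0.12 without TLR3-KO injured 4 and 1.52 without WT injured 3. With limma voom and library quality weights the values were -0.57 for Lcn2, -0.08 for Chi3l1 and -1.94 for Saa3, the last with an adjusted p of 0.0329, under a setting that called 5293 genes in all.

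In controls the question is whether TLR3 loss sets a different baseline. All 3 had lower fitted levels in TLR3-KO control than in WT control libraries, and none passed the test. The log2 difference was -2.74 for Saa3 (SE 1.07, 95% interval -5.00 to -0.48, edgeR adjusted p = 0.181), -1.67 for Lcn2 (SE 1.05, interval -3.89 to 0.56, edgeR adjusted p = 0.382) and -0.76 for Chi3l1 (SE 1.08, interval -3.06 to 1.54, edgeR adjusted p = 0.714). Counted from the lowest of 12455 differences, Saa3 was 8th, Lcn2 33rd and Chi3l1 226th. Saa3 passed the filter on low counts only through injured libraries and was removed from a fit of the controls alone. Each TLR3-KO control held 0 to 9 counts of it, so its difference, p and rank between controls are a description. The difference in Saa3 lay in WT controls 1 and 2, which had 0.939 and 1.74 CPM. Between controls 1 and 2 alone it was -3.92 and between controls 3 and 4 alone -0.32, neither called. Over its alternatives the adjusted p of Saa3 ran between 0.0516 and 0.939. In this comparison 87 genes (0.699%) were called, 33 higher in TLR3-KO (0.265%) and 54 lower (0.434%), and a fit that paired controls by replicate number called 31. Without the TLR3-KO controls that carry Xist, which leaves 1 library in that group, the values were -2.94 for Saa3 (SE 1.97), -1.26 for Lcn2 (SE 1.87) and 0.16 for Chi3l1 (SE 1.70).

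The difference between the pneumonia responses of the genotypes was tested as an interaction. This test uses the same injured and control libraries that chose the genes, so it is not independent of that choice. The log2 value was 2.19 for Lcn2 (SE 1.38, 95% interval -0.74 to 5.12, edgeR adjusted p = 0.381), 2.03 for Saa3 (SE 1.38, edgeR adjusted p = 0.407) and 1.80 for Chi3l1 (SE 1.41, edgeR adjusted p = 0.466), positive where the response was larger in TLR3-KO. None passed, and neither did any other gene in edgeR (0.0% of 12455), although 2217 genes had an unadjusted p under 0.05. DESeq2 called 98 genes and limma voom 5087. With controls 3 and 4 alone the Saa3 value was -0.40. Without the TLR3-KO controls that carry Xist, which leaves 1 library in that group, the values were 1.78 for Lcn2 (SE 2.11), 2.24 for Saa3 (SE 2.13) and 0.89 for Chi3l1 (SE 1.98).

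**Figure D3:**
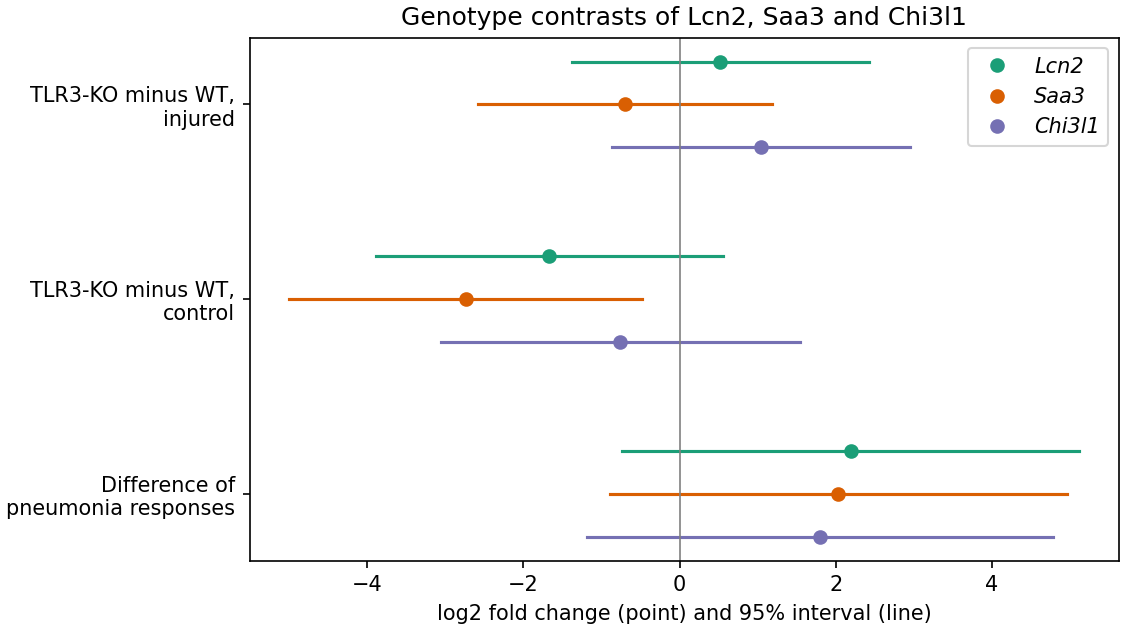
Log2 fold changes of Lcn2, Saa3 and Chi3l1 (points) with 95% intervals (lines) from edgeR, for TLR3-KO minus WT in injured libraries, TLR3-KO minus WT in control libraries, and the difference of the pneumonia responses. Every interval crosses 0 except that of Saa3 in controls, whose adjusted p was 0.181.

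The genes whose levels ran most nearly alongside were found over all 16 libraries by the root mean square of the difference in centred log2 CPM, where a smaller value means a closer profile. The measure is a description and carries no test, and all profiles share the same libraries and depths. Chi3l1 was the gene nearest to Lcn2, at 0.68, against a median of 2.38 over 12454 genes. Next came Steap4, a metalloreductase, at 0.78, Rasip1, a Ras-interacting protein, at 0.79, Hdc, which makes histamine, at 0.84, and Asprv1, an aspartic protease, at 0.88. Asprv1 was nearest to Chi3l1, at 0.61, followed by Lcn2, by Upp1, a uridine phosphorylase, at 0.75, by Cd177, a surface protein of neutrophils, at 0.85, and by Mefv, which encodes the inflammasome sensor pyrin, at 0.86.

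Saa3 kept other company. Its nearest gene was Irg1, which makes the antibacterial metabolite itaconate, at 0.58 against a median of 1.78. Cmpk2, Ifit2 and Ifit3, genes induced by interferon, followed at 0.81, 0.82 and 0.85, with Steap4 at 0.82. Saa3 itself ranked only 30th in nearness to Lcn2, at 1.22, and 90th to Chi3l1, at 1.67. Counted from Saa3, Lcn2 ranked 59th and Chi3l1 1775th of 12454 genes. The measure is not scaled for how widely a gene varies, so genes that vary by unlike amounts lie further apart. Irg1 shared the raised levels of WT controls 1 and 2, at 99.0 and 73.7 CPM, beside 9.48 and 34.6 CPM in WT controls 3 and 4. Its injured libraries had 102, 14.8, 41.7 and 140 CPM in TLR3-KO and 7.71, 115, 236 and 65.0 CPM in WT, and TLR3-KO controls had 3.64 to 10.7 CPM.

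Taking the 3 profiles at once, the 10 nearest genes were Steap4, Rasip1, Tarm1, Asprv1, Rsad2, Nos2, Hdc, Mrgpra2b, Tgtp1 and Irg1, at 0.93 to 1.08 against a median of 2.22. Hdc is shown as an example, and its likeness follows from how it was found. It had 29.6, 4.12, 10.2 and 35.5 CPM in TLR3-KO injured and 1.78, 27.5, 94.5 and 13 CPM in WT injured libraries 1 to 4, against at most 4.69 CPM in TLR3-KO controls and 6.82 CPM in WT controls.

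**Figure D4:**
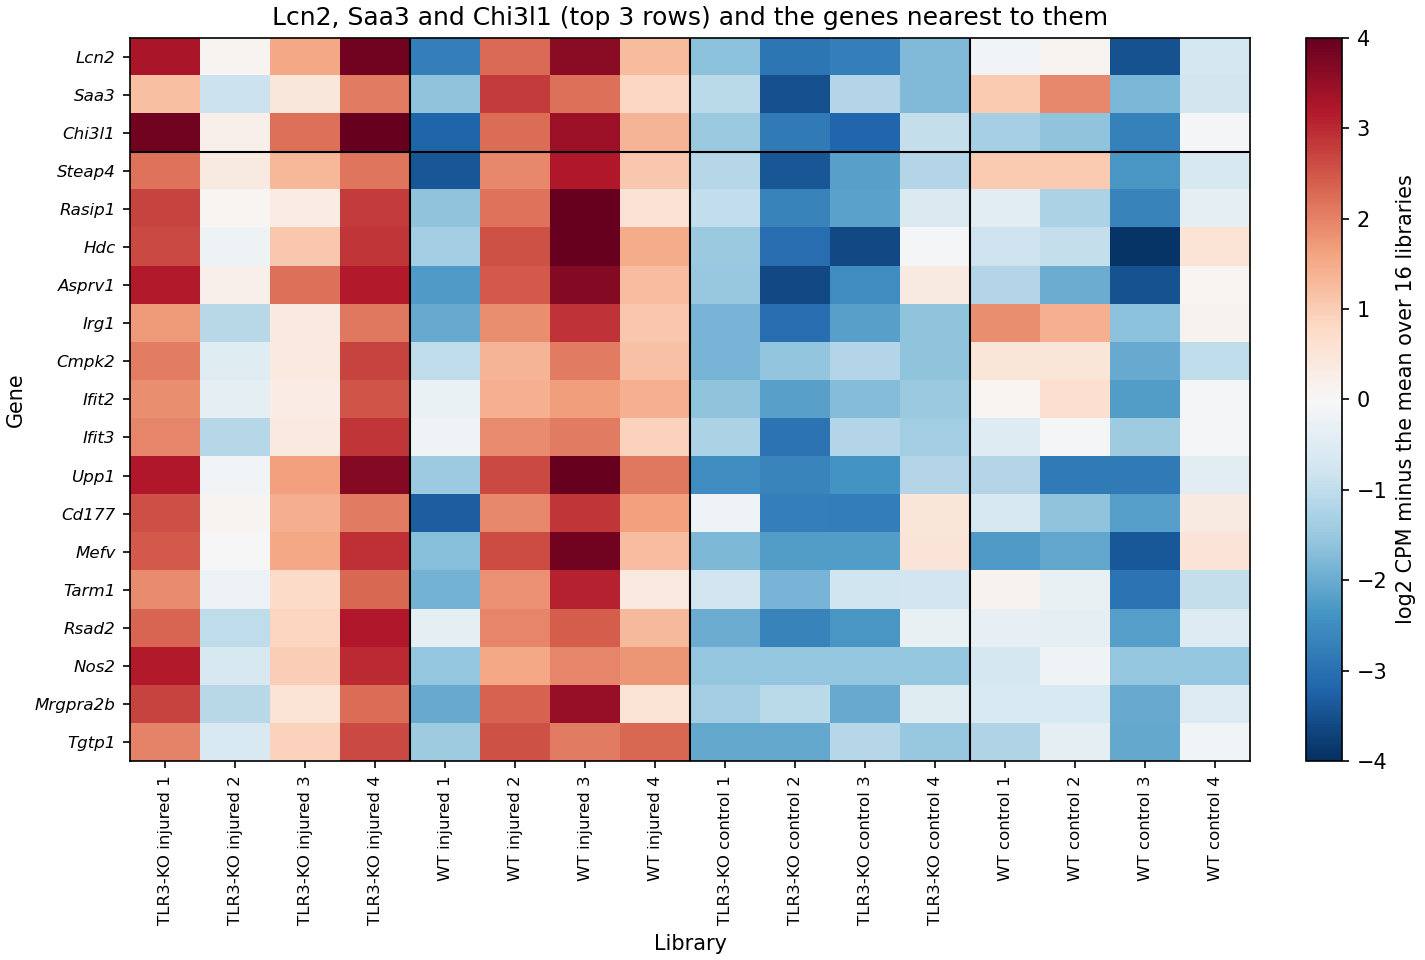
Log2 CPM of Lcn2, Saa3 and Chi3l1 (top 3 rows) and the 16 genes nearest to them, each minus its mean over the 16 libraries (colour scale, red above and blue below the mean, cut at 4 on either side). WT injured 1 and TLR3-KO injured 2 are the palest or bluest injured columns, and WT controls 1 and 2 are red for Saa3, Steap4 and Irg1.

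Hdc, Cd177 and Mrgpra2b belong to a list of neutrophil markers, and that list was examined as a whole because neutrophils hold lipocalin 2. Of its 28 genes, 27 were in the table. Stfa3, BC117090, Elane, Prtn3 and Fcnb had no count in any library, Camp never more than 2 and Mpo never more than 4. The summed level of the list was 290 to 461 CPM in TLR3-KO injured and 267 to 579 CPM in WT injured libraries, against 176 to 277 CPM in TLR3-KO control and 140 to 261 CPM in WT control libraries. Trem1, which macrophages also express, made up 41.3% of that sum. WT injured 1 had a sum of 285 CPM, of which Trem1 gave 170 CPM. The sum was lowest in WT injured 4, at 267 CPM, of which Trem1 gave 98.5 CPM. With Trem1 set aside, the rest of the sum was smallest in WT injured 1 and next smallest in TLR3-KO injured 2, among the 8 injured libraries. Cd177 and Mrgpra2b had no count in WT injured 1, and Hdc had 1.78 CPM. Each was lowest there of all 8 injured libraries, but these genes were found by their likeness to Lcn2, Saa3 and Chi3l1. Of the 4 most abundant genes of the list, only Csf3r was lowest in WT injured 1, at 32.9 CPM. Trem1 was lower in WT injured 4, at 98.5 CPM. Mmp8 had 22.7 CPM in WT injured 1 and 17.8 CPM in WT injured 2. Cxcr1 had 22.1 CPM in WT injured 1 and 16.2 CPM in TLR3-KO injured 3. S100a8 and S100a9, calcium-binding proteins of neutrophils, were singled out after their values were seen. S100a8 averaged 15.9 CPM in TLR3-KO injured and 33.0 CPM in WT injured libraries, against 7.77 CPM in TLR3-KO control and 5.93 CPM in WT control libraries. S100a9 averaged 10.8 CPM in TLR3-KO injured and 32.7 CPM in WT injured libraries, against 3.08 CPM in TLR3-KO control and 2.12 CPM in WT control libraries. Of the 16 list genes tested, 14 had a positive difference after pneumonia in each genotype, with a median log2 difference of 0.97 in TLR3-KO and 2.12 in WT, beside -0.01 and 0.01 over all genes, and none was called. In injured libraries, Mmp8, a collagenase of neutrophil granules, was higher in TLR3-KO (47.3 ± 5.48 CPM, against 22.1 ± 3.30 CPM in WT; edgeR adjusted p = 0.0347) and Cxcr1, a chemokine receptor, was lower (14.6 ± 1.53 CPM in TLR3-KO, against 25.5 ± 4.28 CPM in WT; edgeR adjusted p = 0.0452; SD, n = 4 each). These calls stand beside 0.618% of all genes called in that comparison. Between control genotypes the log2 differences had the same signs, 0.57 for Mmp8 and -0.75 for Cxcr1 (edgeR adjusted p = 0.163 and 0.0568), neither called. The part of neutrophil RNA in the levels of the 3 genes was not tested.

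Lung epithelium also makes these proteins, and 5 of its 24 markers were higher in TLR3-KO injured than in WT injured libraries. Their sum was 723 to 880 CPM in TLR3-KO injured and 300 to 620 CPM in WT injured libraries, against 341 to 792 CPM in TLR3-KO control and 231 to 467 CPM in WT control libraries, with 24 of 24 markers in the table, none at 0 in a whole group and Krt19 making up 57.2%. All 24 were tested, and the 5 calls in injured libraries stand beside 0.393% of all genes called higher there. None was lower, and the median log2 difference was 0.98, with 17 of 24 positive. Between controls none was called, 16 of 24 were positive and the median was 0.15. Cldn18, a tight junction protein of the alveolus, averaged 4.82 ± 2.13 CPM in TLR3-KO injured and 0.668 ± 0.136 CPM in WT injured libraries (SD, n = 4 each; edgeR adjusted p = 0.00396). Sftpb, a surfactant protein, averaged 2.31 ± 0.762 CPM and 0.323 ± 0.0601 CPM in the same groups (edgeR adjusted p = 0.00545). The library order of this sum differed from that of Lcn2: TLR3-KO injured 2, lowest of its group for Lcn2, had the highest epithelial sum at 880 CPM. WT injured 1, lowest of all for Lcn2, had 620 CPM, the highest in WT injured, of which Krt19 gave 417 CPM. Single markers did not share 1 order. Within WT injured libraries, WT injured 1 was highest for Cdh1, at 63.5 CPM. It was lowest for Cldn18, at 0.466 CPM, and for Abca3, at 45.4 CPM. The part of epithelial RNA in the levels of the 3 genes was not tested. Across all lists 8 genes were called between the injured genotypes, and 2 with the replicate block, at 5 CPM in 3 libraries, or without any one of TLR3-KO injured 1, 2 or 3 or WT injured 1, 2 or 3.

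TLR3-KO controls 1 to 3 carry Xist, while TLR3-KO injured libraries had at most 0.139 CPM of it. Pneumonia and the sex of the RNA therefore cannot be told apart in calls between these groups. The calls after pneumonia in TLR3-KO that follow did not hold under several alternatives. Across all lists 17 genes were called there, against 0 with the replicate block and 44 with DESeq2. The count was also 0 without any one of TLR3-KO injured 1 or 3 or TLR3-KO control 1, 3 or 4. Without TLR3-KO control 2 the count was 37, and without TLR3-KO injured 4 or WT control 2 it was 1. Among other acute-phase genes, 1 passed the test. Of 27 listed, 11 were tested. Lrg1, a secreted leucine-rich glycoprotein, was higher in TLR3-KO injured than in TLR3-KO control libraries (23.0 ± 6.30 against 10.8 ± 1.93 CPM, log2 fold change 1.01, SE 0.24, edgeR adjusted p = 0.0489). In that comparison 192 of 12455 genes (1.54%) were called, 112 of them higher (0.899%) and 80 lower (0.642%). The list had a median log2 difference of 0.86 in TLR3-KO and 0.10 in WT, beside -0.01 and 0.01 over all genes. Cfb and C3, complement components that macrophages make, had 867 ± 118 and 392 ± 78.7 CPM in TLR3-KO injured libraries, against 449 ± 171 and 187 ± 89.3 CPM in TLR3-KO controls, and neither was called (SD, n = 4 each; edgeR adjusted p = 0.225 and 0.181). In WT after pneumonia 2 of 12455 genes (0.0161%) were called, and none was on this list.

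Among 25 other antibacterial proteins, 11 were tested and only Nos2, the inducible nitric oxide synthase, was called. It had 1.20, 0.0423, 0.236 and 1.09 CPM in TLR3-KO injured libraries and no count in any of the 4 TLR3-KO controls. It passed the filter on low counts only through injured libraries, its TLR3-KO injured 2 value is under the worth of 3 counts, and it was among the genes nearest to Lcn2, Saa3 and Chi3l1, so its call is a description. The lysozymes Lyz2 and Lyz1 were abundant throughout. Lyz2 averaged 29700 ± 2970 CPM in TLR3-KO injured and 33600 ± 1380 CPM in WT injured libraries, against 32000 ± 4800 CPM in TLR3-KO control and 30800 ± 3300 CPM in WT control libraries (SD, n = 4 each), with no call. All 11 had a positive difference after pneumonia in WT, with a median of 0.80, and 7 of 11 in TLR3-KO, with a median of 0.20.

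No gene of the same families was called in any comparison. Chi3l3, the chitinase-like protein that marks alveolar macrophages, averaged 19200 ± 1440 CPM in TLR3-KO injured and 17900 ± 2890 CPM in WT injured libraries, against 18000 ± 2510 CPM in TLR3-KO control and 17500 ± 2550 CPM in WT control libraries (SD, n = 4 each). Its log2 difference after pneumonia was 0.02 in TLR3-KO (SE 0.15) and -0.08 in WT (SE 0.15). Of the chitinase family, 5 genes were tested. Chit1, the chitinase gene 30636 bases upstream of Chi3l1, had 1 count in all 16 libraries. Saa1 and Saa2, the liver-type serum amyloids 24797 and 36090 bases from Saa3, had no count in any library, and Saa4 had no more than 3 in any. Of 12 other lipocalins, C8g and Rbp4 were tested, at averages of at most 0.391 CPM, and neither was called. Among annotated genes within 100 kb of Lcn2, Ciz1 averaged 46.2 CPM in TLR3-KO injured and 36.7 CPM in WT injured libraries, against 41.5 CPM in TLR3-KO control and 39.5 CPM in WT control libraries. Saal1, 1318 bases from Saa3, averaged 7.27 and 5.35 CPM in TLR3-KO injured and WT injured libraries, against 5.80 and 4.69 CPM in TLR3-KO control and WT control libraries.

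Of 22 receptors and iron partners, 18 were tested. The chains of ferritin, which stores iron inside cells, were lower in TLR3-KO injured than in TLR3-KO control libraries, of which controls 1 to 3 carry Xist. Ftl1 averaged 25600 ± 1770 CPM in TLR3-KO injured and 37700 ± 6840 CPM in TLR3-KO controls (log2 fold change -0.62, SE 0.13, edgeR adjusted p = 0.0392), and Fth1 19800 ± 1950 and 27600 ± 5150 CPM in the same groups (log2 fold change -0.54, SE 0.13, edgeR adjusted p = 0.0493; SD, n = 4 each). In WT their log2 differences were -0.31 and -0.40, not called, and whether the genotypes differ in this is covered by the interaction test, which called no gene. Ager, a receptor that alveolar epithelium expresses strongly, was higher in TLR3-KO injured than in WT injured libraries (6.31 ± 3.01 against 1.62 ± 0.502 CPM, edgeR adjusted p = 0.0497), beside the epithelial markers above.

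Of 22 transcriptional regulators 19 were tested, and Irf1, which responds to interferon, alone was called. It rose in TLR3-KO after pneumonia, to 86.1 ± 15.7 CPM in injured libraries, against 44.7 ± 3.74 CPM in controls (SD, n = 4 each; log2 fold change 0.88, SE 0.21, edgeR adjusted p = 0.0489). Cebpb, the C/EBP factor of macrophages, averaged 2960 ± 256 CPM in TLR3-KO injured and 3130 ± 501 CPM in WT injured libraries, against 3310 ± 591 CPM in TLR3-KO control and 3150 ± 659 CPM in WT control libraries, with no call. None of 21 inducing cytokines and signalling genes tested was called in any comparison, Il17ra, Tnfrsf1a and Il1rn among them. Interferon-stimulated genes were listed with earlier results of these libraries known, and several ran beside Saa3, so their difference after pneumonia is a description. Of 19 tested, 10 were called higher and none lower in TLR3-KO, where 0.899% of all genes were called higher, and none in WT. Ifit2 had 11, 2.35, 3.78 and 18.1 CPM in TLR3-KO injured libraries, against 0.610 to 1.08 CPM in TLR3-KO controls (log2 difference 3.30, SE 0.66). The list's median log2 difference was 2.66 in TLR3-KO and 1.45 in WT. Over all genes, the 192 calls in TLR3-KO after pneumonia became 0 without TLR3-KO injured 3 and 1248 without TLR3-KO control 2.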

How the data were processed

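Poly(A) RNA of lavage macrophages was sequenced as paired reads of 50 bases from TruSeq mRNA libraries, per the labels' protocols. Per the submitters' processing notes, FastQC 0.11.3, TopHat2 2.0.13, Bowtie2 2.2.1, Cufflinks and Cuffdiff 2.1.1 were used with the build mm10. The values used here are raw counts per gene symbol, deposited by the authors in a table named for HTSeq; its version, strand setting and annotation are not given in the sources used here.

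Lcn2, Saa3 and Chi3l1 and all gene lists were chosen with earlier results of these data known. CPM used each library's total. Genes were kept by filterByExpr (minimum count 10), which removed 10704, scaled by TMM (factors 0.896 to 1.067) and fitted with edgeR 4.0.16 (R 4.3.3) by the quasi-likelihood test with 1 coefficient per group, with Benjamini-Hochberg adjustment across the 12455 genes that remained. Exact Poisson intervals and the floor of 3 counts cover counting error only. Named list genes were the 4 most abundant of each list and those called in any comparison (the 6 with the lowest p where more were called), with S100a8 and S100a9 added; profile neighbours were the 5 nearest per gene and the 10 nearest to all 3 (log2 CPM with prior count 2). Lengths and positions came from GENCODE M21, which matched 22652 of 23159 symbols, and promoters from RefSeq GRCm38.p6.

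Replicate numbers in the titles paired the control genotypes: departures from the group means correlated at 0.48 to 0.60 between libraries of the same number, and for 7 of 8 libraries the closest partner had the same number. The same results were also computed with DESeq2 1.42.0, limma 3.58.1 voom with quality weights, RLE scaling, other filters, fits of 2 groups, the replicate block, subsets of the controls, and each library left out.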

Additional observations from a re-analysis of the deposited data

Results flagged for a closer look

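Among 48 sets of 4 libraries examined, made of Lcn2, Saa3, Chi3l1 and the marker sums in each group, none of the 3 genes had a library set apart by Dixon's criterion for 4 samples at the 95% level, a criterion that chance passes in about 1 in 20 sets. For 3 marker sums the gap from 1 library to its nearest neighbour, as a share of the group's range, was larger. The B cell sum in WT controls had a share of 0.883, with WT control 4 at 28.4 CPM and the other 3 at 0.525 to 3.77 CPM. The fibroblast and endothelium sum in WT controls had a share of 0.856, with WT control 4 at 86.9 CPM and the others at 43.9 to 50.1 CPM, nearly all of it Vwf. The erythroid sum in TLR3-KO controls had a share of 0.839, with TLR3-KO control 4 at 103 CPM and the others at 8.29 to 23.5 CPM, nearly all of it Alas2. WT control 4 and TLR3-KO control 4 were also the highest controls of their genotype for Chi3l1, at 2.27 and 1.22 CPM.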

How the results depend on the processing

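Of 381 alternative values of the 15 fold changes, 374 kept their direction and their side of the threshold, or moved by less than the spread. For TLR3-KO minus WT in injured libraries, voom turned Lcn2 (-0.57) and Chi3l1 (-0.08) and called Saa3 (-1.94, adjusted p = 0.0329). Without the TLR3-KO controls that carry Xist, which leaves 1 library in that group, Chi3l1 turned in controls (0.16). With controls 3 and 4 only, the Saa3 interaction turned (-0.40) and its WT pneumonia difference was 3.21. Saa3 has no value under the filter of 5 CPM in 3 libraries, nor in the 2-group fit of controls, and the interaction has no 2-group fit.

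Leaving out 1 library gave, for TLR3-KO minus WT in injured libraries, -0.12 to 1.52 for Lcn2, -1.32 to -0.11 for Saa3 and 0.57 to 1.93 for Chi3l1. In controls it gave -2.04 to -1.36, -3.10 to -1.96 and -1.29 to -0.10, and for the interaction 1.55 to 3.19, 1.25 to 2.66 and 1.14 to 2.70. The pneumonia differences were 4.42 to 5.42, 2.47 to 3.41 and 4.69 to 5.69 in TLR3-KO and 1.87 to 3.27, 0.42 to 1.83 and 2.46 to 4.03 in WT. Genes called ranged over 17 to 450, 17 to 467, 0 to 0, 0 to 1248 and 0 to 10 in these 5 comparisons.

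Counts of calls varied widely between settings. For TLR3-KO minus WT in injured libraries (77), they were 444 with DESeq2, 5293 with voom, 39 at 5 CPM, 155 with 2 groups, 120 without the Xist libraries, 602 with controls 1 and 2 and 178 with controls 3 and 4. In controls (87), they were 146 with RLE, 781 with DESeq2, 2885 with voom, 10 with 2 groups, 239 with controls 1 and 2 and 20 with controls 3 and 4. For the interaction (0), DESeq2 called 98, voom 5087 and controls 1 and 2 alone 58. For TLR3-KO pneumonia (192), they were 1031 with DESeq2, 1740 with voom, 106 with no filter, 36 with 2 groups, 83 with controls 1 and 2 and 4113 with controls 3 and 4. For WT pneumonia (2), they were 11 with RLE, 181 with DESeq2, 4653 with voom, 1 with no filter, 0 with 2 groups, 1646 with controls 1 and 2 and 64 with controls 3 and 4. The 120 calls without the Xist libraries compare injured genotypes, and neither group of that comparison contains those libraries. That count therefore does not show how calls that use the TLR3-KO controls depend on them. For comparisons with TLR3-KO controls, that setting leaves 1 library in the group, so its counts of calls are not given. The cause of the spread between settings was not tested.

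With the replicate number as a block, the calls were 21 between injured genotypes, 31 between control genotypes, 11 in TLR3-KO pneumonia and 3 in WT pneumonia, and no call of Lcn2, Saa3 or Chi3l1 changed. Outside the control genotypes the correlations at the same number were lower. They were -0.34 to 0.08 between injured genotypes, -0.07 to 0.34 in TLR3-KO pneumonia and -0.29 to -0.12 in WT pneumonia. In these comparisons 0, 6 and 0 of 8 libraries were nearest their own number. Depth limits Saa3 most, with 0 to 9 counts in each TLR3-KO control.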
